A study of Schizosaccharomyces pombe with 29 samples.

Results

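The T4A strain of fission yeast, Schizosaccharomyces pombe, carries an allele of rpb1 labelled rpb1-CTD-T4A29. In this allele alanine replaces the threonine at position 4 of the heptads in the carboxy-terminal domain (CTD) of the largest subunit of RNA polymerase II, with 29 heptads in all. Its libraries were taken from the deposited count table by their column names, which begin with T4A, and make up 3 of 31 library columns. They are described here across all genes, against a strain whose 29 heptads are unchanged (WT29).

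The CTD is a long, flexible tail of repeated heptads that is phosphorylated and dephosphorylated as the polymerase starts, elongates and terminates. Its marks recruit enzymes that cap the RNA, cleave and polyadenylate it, and release the polymerase. In fission yeast growing with ample phosphate, the genes of phosphate acquisition are held down by transcription of long non-coding RNAs just upstream of them, which makes these genes a common readout of CTD mutants.

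The T4A cells have the strain number BS 1, and no mating type or selection marker is given for them in the labels used here. The WT29 cells are labelled h+ rpb1-CTD-WT29::NatMX, strain AS785, and were measured as control set 2, which the labels name as the control of T4A, and again as control set 1. The ALT-P3A, ALT-S5A and ALT-P6A strains, also h+ and NatMX-marked with 29 heptads, have the same named control set as T4A and were used for direct comparisons. What ALT stands for is not given in the labels. All were growing vegetatively in rich YES medium at 30 °C and harvested in log phase, with 3 libraries of polyadenylated RNA per group, and the series text speaks of 3 or more replicate experiments per sample. Whether these were separate cultures is not said, so p-values measure only the spread between these libraries.

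Total counts were 20.8, 20.3 and 21.9 M (mega) in the T4A libraries, against 19.3, 24.9 and 20.3 M in control set 2 and 23.2, 24.5 and 21.0 M in control set 1. The ALT libraries held 19.5 to 35.8 M. The T4A libraries are re-analysed from an earlier series and were read on a HiSeq instrument, all the others in these comparisons on a NovaSeq instrument, so allele and sequencing source cannot be told apart. The control sets share a strain label but differed from each other, as the values below show, and the count columns of control set 2 were assigned to it by elimination. These 3 columns belong to 1 sample record, whereas each library of the other groups has its own, so how separate they are is known only from their numbering. Results are therefore given against both sets, which share the T4A libraries in every comparison. A gene is called where edgeR's quasi-likelihood test gave an adjusted p under 0.05 and the change was at least 2-fold. Rose and fell refer to the adjusted p only. Levels are in CPM, a gene's counts per M counts of its library, with all libraries scaled together, and n is 3 libraries per group throughout.

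The rpb1 transcript itself (SPBC28F2.12) stood at 48.5, 88.1 and 49.3 CPM in T4A, against 523, 440.4 and 452 CPM in control set 2 and 149, 164 and 172 CPM in control set 1. All 3 T4A libraries lay below all 6 control libraries, and the control sets did not overlap each other. The log2 fold change was -2.97 ± 0.21 (SE) against control set 2 (adjusted p = 5.2e-06, edgeR) and -1.41 ± 0.20 against control set 1 (adjusted p = 4.2e-04, edgeR). Against ALT-P3A it was -0.62 and against ALT-S5A -0.66, at an adjusted p of 0.017 in both (edgeR), and against ALT-P6A it was -0.17 (adjusted p = 0.52, edgeR). Counts per gene do not show the codons of the heptads, so the allele of a library cannot be checked from them.

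Against control set 2, 317 genes were called higher in T4A and 475 lower of 6018 tested (5.27% and 7.89%). With control set 1 as the reference, 256 were called higher and 345 lower of 5974 tested (4.29% and 5.78%). Both references gave the same call for 147 rises and 160 falls of 5933 genes tested in both fits (2.48% and 2.7%), of which 69 and 75 were protein-coding genes. In contrast, 13 genes were called higher against control set 2 but lower against control set 1, and 3 the other way round. The median log2 fold change over all genes tested was 0.0059 against control set 2 and -0.017 against control set 1. The polyadenylated RNA of a whole culture cannot tell fewer cells in some state from less RNA per cell.

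**Figure D1:**
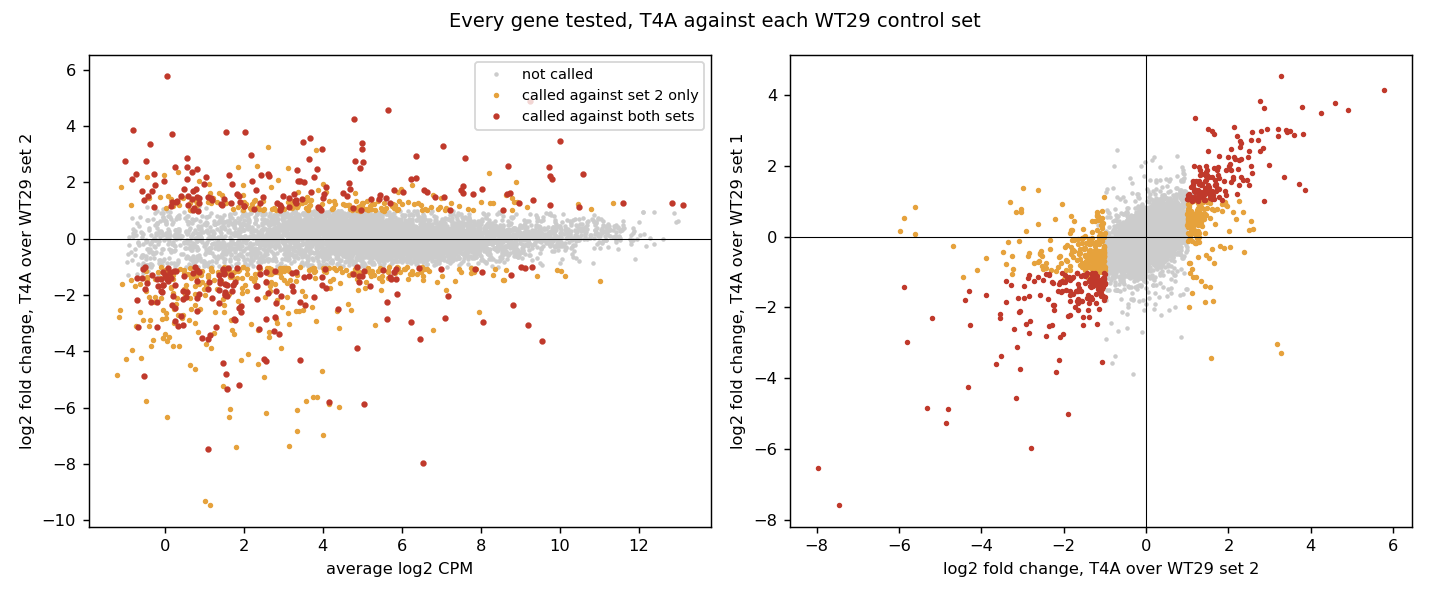
Log2 fold change of T4A over WT29 control set 2 for each gene tested (vertical axis) against its average level in log2 CPM (horizontal axis). Genes called against both control sets, 147 higher and 160 lower, are set apart from those called against control set 2 but not in the same direction against control set 1.

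Genes of phosphate acquisition were among the largest falls of T4A. The gene pho1 (SPBP4G3.02), which encodes a secreted acid phosphatase, stood at 108, 134 and 97 CPM in T4A, against 1353, 1285 and 1488 CPM in control set 2 and 1421, 1377 and 1257 CPM in control set 1. The phosphate transporter gene pho84 (SPBC8E4.01c) stood at 118, 145 and 122 CPM in T4A, against 1068, 970.0 and 1096 CPM in control set 2 and 1708, 1677 and 1672 CPM in control set 1. For both genes the T4A libraries lay far below every control library. The log2 fold change of pho1 was -3.63 ± 0.14 against control set 2 (adjusted p = 1.9e-07, edgeR) and -3.60 ± 0.16 against control set 1. That of pho84 was -3.05 ± 0.12 and -3.74 ± 0.14 against the same sets.

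The third gene of the group, tgp1 (SPBC1271.09), encodes a transporter of glycerophosphodiesters. It stood at 8.45, 13.1 and 7.27 CPM in T4A, against 14.6, 12.7 and 12.1 CPM in control set 2 and 12.8, 12.5 and 10.8 CPM in control set 1. The T4A range overlapped both control ranges, and the gene did not pass the test (-0.49 ± 0.23, adjusted p = 0.11, and -0.35 ± 0.23, adjusted p = 0.25, edgeR). The upstream non-coding RNA of pho84, prt2 (SPBC8E4.02c), stood at 0.23 against control set 2 (adjusted p = 0.39, edgeR) and rose by 0.94 against control set 1 (adjusted p = 0.0066, edgeR). The RNAs upstream of pho1 and tgp1 were not analysed here.

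The phosphate genes were lower in T4A than in each ALT allele. The log2 fold change of T4A over ALT-P3A was -3.98 for pho1, -3.23 for pho84 and -1.25 for tgp1. Over ALT-S5A it was -5.86, -4.43 and -4.60, and over ALT-P6A -5.94, -4.41 and -4.54, for the same genes in that order. Each of these 9 differences passed the test, the largest adjusted p being 4.0e-04 for tgp1 over ALT-P3A (edgeR). For tgp1, T4A averaged 9.61 ± 3.09 CPM, against 225 ± 50.2 CPM in ALT-S5A and 219.8 ± 3.99 CPM in ALT-P6A (SD).

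**Figure D2:**
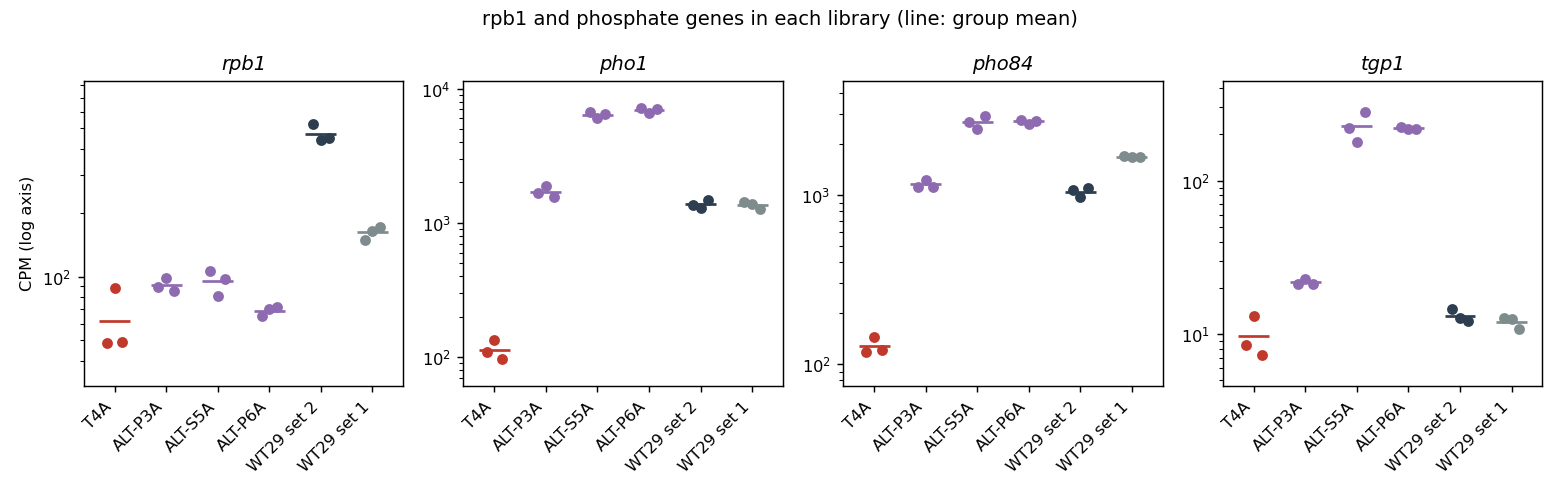
Level of pho1, pho84 and tgp1 in each library in CPM on a log axis, by strain, with T4A at the left; horizontal lines are group means. The T4A libraries lie between 97 and 134 CPM for pho1 and between 118 and 145 CPM for pho84, below all other libraries shown, but overlap the controls for tgp1.

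Of 8 regulators and signalling genes of phosphate, 0 rose and 2 fell against both sets (0% and 25%), against 9.79% and 10.8% of all genes. One is asp1, the kinase and phosphatase of inositol pyrophosphates, with log2 fold changes of -0.48 and -0.74 against control sets 2 and 1. The other is vtc4, which makes polyphosphate (-0.62 and -0.54). The transcription factor gene pho7, which activates the acquisition genes, stood at 0.25 against control set 2 (adjusted p = 0.12, edgeR) and rose by 0.52 against control set 1 (adjusted p = 0.011, edgeR).

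Heat shock protein and chaperone genes were higher in T4A. Of 15 listed chaperone genes 12 rose and 0 fell against control set 2, where 18.4% of all genes tested rose and 22.4% fell. Against control set 1, 10 rose and 1 fell (17.7% and 20.6% of all genes), and 8 rose and 0 fell against both sets (9.79% and 10.8% of all genes). The median log2 fold change of the list was 1.08 and 0.62. The largest change was that of hsp16 (SPBC3E7.02c), whose product is a small heat shock protein, at 1248, 1128 and 1191 CPM in T4A, against 46.1, 37.7 and 33.1 CPM in control set 2 and 108, 105 and 80.8 CPM in control set 1. The T4A libraries were close together and far above the controls, with log2 fold changes of 4.91 ± 0.16 (adjusted p = 6.8e-08, edgeR) and 3.58 ± 0.15 (adjusted p = 2.0e-07, edgeR).

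The Hsp70 gene ssa1 (SPAC13G7.02c) stood at 676, 946 and 542 CPM in T4A, against 115, 114 and 126 CPM in control set 2 and 107, 96.7 and 71 CPM in control set 1. No control library reached the T4A range, and the log2 fold changes were 2.58 ± 0.17 and 2.96 ± 0.22. The disaggregase gene hsp104 rose by 1.64 ± 0.10 and 1.93 ± 0.12, its mitochondrial relative hsp78 by 1.50 ± 0.15 and 1.40 ± 0.13, and hsp90 by 1.28 ± 0.19 and 1.10 ± 0.23. Another cytosolic Hsp70 gene, ssa2, rose by 0.94 against control set 2 and stood at 0.41 against control set 1. The gene of the ribosome-associated Hsp70, sks2, stood at -0.18 and fell by 0.86 on the log2 scale against control set 1.

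Of 15 core environmental stress genes, which many kinds of stress induce in this yeast, 10 rose and 2 fell against control set 2, 8 rose and 2 fell against control set 1, and 7 rose and 2 fell against both. The trehalose-6-phosphate synthase gene tps1 rose by 1.37 ± 0.16 and 1.49 ± 0.17, the pyridoxal reductase gene plr1 by 2.29 ± 0.18 and 2.69 ± 0.23, and the metallothionein gene zym1 by 1.76 ± 0.17 and 1.10 ± 0.17. The falls were rds1 (-1.43 and -0.78) and the glycerol-3-phosphate dehydrogenase gene gut2 (-1.42 and -0.62). The catalase gene ctt1, a standard member of this response, stood at 0.15 and 0.14 and did not pass against either set. The DNA damage-responsive gene ddr48 rose by 2.31 ± 0.25 and 2.18 ± 0.26, but stands at -0.99 in the authors' deposited table. Of the 10 listed genes that rose against control set 2, 6 are negative in the authors' deposited table (60%), against 25.2% of all genes that rose. Besides ddr48, these are hsp9 (-2.02), lsd90 (-1.10), zym1 (-0.71), gpx1 (-0.65) and atf1 (-0.23) in the authors' deposited table. All 12 chaperone genes that rose against control set 2 are positive in the authors' deposited table.

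The list of peroxide and drug response genes had 9 members of 12 that rose and 0 that fell against control set 2, 9 and 0 against control set 1, and 7 and 0 against both. The sulfiredoxin gene srx1 (SPBC106.02c), which repairs oxidised peroxiredoxin, stood at 47, 65.2 and 38.4 CPM in T4A, against 6.86, 6.48 and 8.12 CPM in control set 2 and 6.98, 6.41 and 5.29 CPM in control set 1. The polyamine and drug transporter gene caf5 (SPBC609.04) stood at 284, 568 and 193 CPM in T4A, against 48.2, 43.2 and 47.7 CPM in control set 2 and 30.1, 27.9 and 24.9 CPM in control set 1. Both genes were higher in each T4A library than in any control, and for both replicate 2 was the highest of the T4A libraries. The log2 fold changes were 2.78 ± 0.21 and 2.99 ± 0.22 for srx1, and 2.87 ± 0.31 and 3.63 ± 0.33 for caf5. The glutathione S-transferase gene gst2 rose by 2.13 ± 0.19 and 3.09 ± 0.27, while the transcription factor gene pap1, which activates many of these genes, stood at 0.16 and rose by 0.41 against control set 1.

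Other coding genes named by the size of their rise against both sets encode enzymes of detoxification and proteins known by family name. The aldehyde dehydrogenase gene atd1 (SPAC9E9.09c) stood at 1955, 2338 and 1508 CPM in T4A, against 188, 165 and 155 CPM in control set 2 and 335, 243 and 145 CPM in control set 1. Its log2 fold changes were 3.48 ± 0.17 and 2.98 ± 0.28. The short chain dehydrogenase gene osr1 rose by 2.72 ± 0.19 and 2.73 ± 0.19, and mug108, specific to this genus, by 3.81 ± 0.30 and 2.89 ± 0.27. SPAC27D7.09c, of the But2 family, rose by 3.28 ± 0.17 and 4.54 ± 0.28. In the reference genome 25.2% of the 31-base stretches of this gene occur once, so reads may be shared with a near copy and its value is uncertain.

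**Figure D3:**
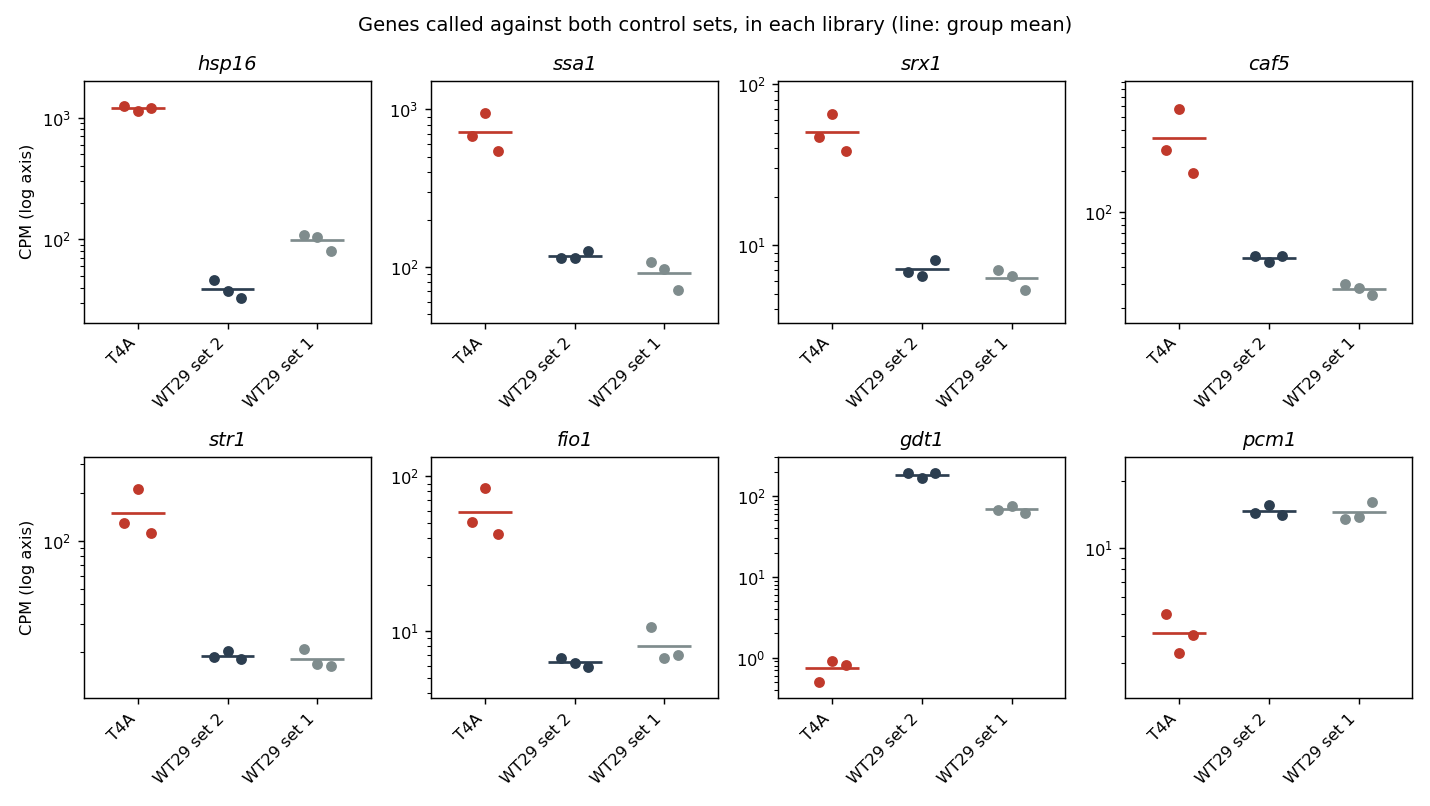
Level of 8 genes called against both control sets in each library, in CPM on a log axis, with group means as lines. The T4A libraries lie above all control libraries for hsp16, ssa1, srx1, caf5, str1 and fio1, and below them all for gdt1 and pcm1.

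Genes of high-affinity iron uptake rose as well. Of 9 tested, 7 rose and 1 fell against control set 2, 5 rose and 0 fell against control set 1, and 5 rose against both, with medians of 1.65 and 0.76. The siderophore-iron transporter gene str1 (SPBC4F6.09) stood at 128, 209.5 and 111 CPM in T4A, against 18.5, 20.3 and 18.2 CPM in control set 2 and 20.9, 16.8 and 16.4 CPM in control set 1. The multicopper ferroxidase gene fio1 (SPAC1F7.08) stood at 51, 83.7 and 42.8 CPM in T4A, against 6.76, 6.23 and 5.91 CPM in control set 2 and 10.6, 6.7 and 7.02 CPM in control set 1. T4A was above every control library for both. The log2 fold changes were 2.94 ± 0.20 and 3.03 ± 0.22 for str1, and 3.19 ± 0.24 and 2.85 ± 0.27 for fio1. Its partner, the iron permease gene fip1, rose by 2.16 ± 0.20 and 2.18 ± 0.22, and the ferric reductase gene frp1 by 1.65 ± 0.26 and 0.76 ± 0.25.

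The siderophore synthesis genes moved less, with sib1 at 0.39 (rose) and -0.16 and sib2 at 0.40 and -0.17. A second siderophore transporter gene, str2, fell by 0.60 on the log2 scale against control set 2 and stood at 0.37 against control set 1. The gene of the repressor that acts in low iron, php4, rose by 0.43 and 0.65. That of the vacuolar iron importer, pcl1, fell (-0.40 and -0.32), while fep1, which represses the uptake genes when iron is ample, stood at -0.29 and 0.02 and did not pass. The largest change among these 8 iron regulators and iron-using genes was a fall of abc3 (-1.13 and -0.75). That list had 1 rise and 2 falls against both sets (12.5% and 25%), against 9.79% and 10.8% of all genes. Of the iron-uptake genes, 8 rose and 1 fell relative to ALT-P3A, 7 and 1 relative to ALT-S5A, and 6 and 3 relative to ALT-P6A. In these fits 15.9%, 13.6% and 16.4% of all genes rose and 17.7%, 17.2% and 15.5% fell.

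Of 9 zinc and copper genes, 2 rose and 5 fell against control set 2, with a median of -0.58, 4 rose and 2 fell against control set 1, with a median of 0.10, and 2 rose and 2 fell against both. The zinc transporter gene zrt1 stood at 61.6, 89.3 and 60.3 CPM in T4A, against 363, 320.1 and 586 CPM in control set 2 and 117, 119 and 103 CPM in control set 1. It fell against both sets (-2.62 ± 0.23 and -0.71 ± 0.15), but was called against control set 2 only. The zinc-responsive alcohol dehydrogenase gene adh4 fell too (-1.48 and -0.54), and the copper transporter genes ctr4 and ctr5 fell against control set 2 (-0.66 and -0.90) but stood at 0.05 and 0.10 against control set 1.

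Subunits of the proteasome, the protease complex that degrades ubiquitinated proteins, rose by small amounts. Of 34 listed genes 24 rose and 0 fell against control set 2, 17 rose and 2 fell against control set 1, and 15 rose and 0 fell against both, with medians of 0.57 and 0.34. The list also holds prs1 and prs5, which encode a tRNA ligase and a pyrophosphokinase and not proteasome subunits. Of these, prs5 is 1 of the 17 rises against control set 1 (0.54), and prs1 passed against neither set. The core particle genes pup3 (1.30 ± 0.12 and 0.99 ± 0.14), pup2 (1.29 ± 0.14 and 0.72 ± 0.12) and pre4 (0.86 ± 0.09 and 0.56 ± 0.10) and the regulatory particle gene rpn12 (1.03 ± 0.11 and 0.67 ± 0.11) were among them. The falls against control set 1 were the ATPase genes rpt5 (-0.44) and rpt6 (-0.62).

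**Figure D4:**
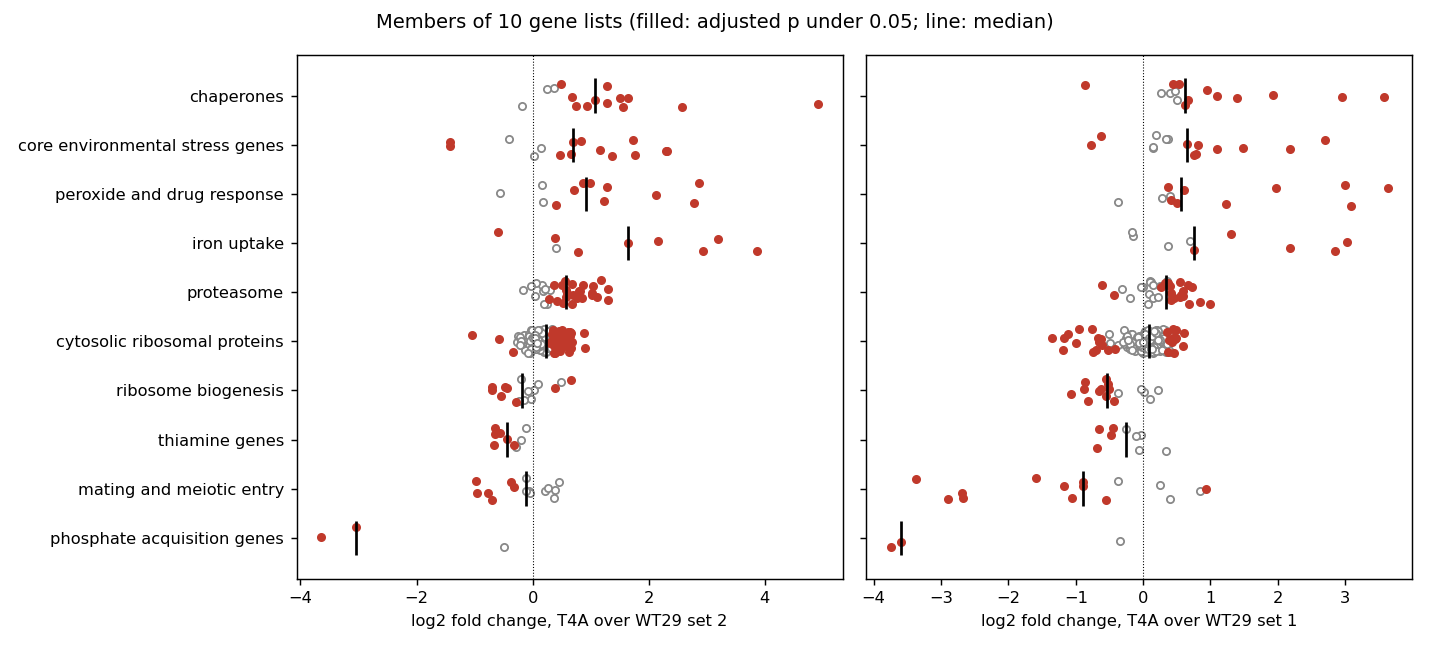
Log2 fold change of each tested member of selected gene lists in T4A over control set 2 and over control set 1 (horizontal axis), by list; short lines are list medians. Chaperone, iron uptake and proteasome genes lie mostly to the right of 0, with medians of 1.08, 1.65 and 0.57 against control set 2, and thiamine genes to the left, with a median of -0.44.

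Transcripts of meiotic genes that growing cells destroy through the RNA-binding protein Mmi1 were higher for some members. Of 11 tested against control set 2, 7 rose and 1 fell (63.6% and 9.09%, against 18.4% and 22.4% of all genes). Of 12 tested against control set 1, 5 rose and 1 fell (41.7% and 8.33%, against 17.7% and 20.6%). Of 10 tested in both, 4 rose and 0 fell (40% and 0%, against 9.79% and 10.8%). The fall against control set 2 was spo4 (-3.79), which was not tested against control set 1. That against control set 1 was num1 (-1.16), at -0.15 against control set 2. In the authors' deposited table spo4 is at 0.43 and num1 at -2.27. Without T4A replicate 2, 11 members rose against control set 2. That fit had its own filter on low counts, so its tested members need not be the same 11. Over ALT-P3A, ALT-S5A and ALT-P6A, 3, 2 and 2 rose and 2, 2 and 3 fell, of 14, 14 and 16 tested. In those fits 15.9%, 13.6% and 16.4% of all genes rose and 17.7%, 17.2% and 15.5% fell, so the rises there were near the share of all genes. The meiotic forkhead factor gene mei4 stood at 6.04, 5.98 and 5.89 CPM in T4A, against 3.45, 2.84 and 3.03 CPM in control set 2 and 1.99, 2.08 and 1.12 CPM in control set 1, and the groups did not overlap (0.92 ± 0.19 and 1.76 ± 0.25). Also higher against both sets were the dynactin gene ssm4 (2.56 ± 0.40 and 1.80 ± 0.27) and the meiotic cohesin gene rec11 (1.47 ± 0.30 and 1.60 ± 0.29). The recombination gene rec10 stood at 18, 7.67 and 18.7 CPM in T4A, above control set 2 at 1.27, 3.61 and 2.79 CPM. Control set 1, at 8.41, 10.2 and 20.2 CPM, overlapped T4A. Of the elimination machinery, erh1 rose (0.91 and 0.50) and mmi1 fell (-0.36 and -0.71), as did the deadenylase gene ccr4 (-0.46 and -0.82).

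The genes of mating and entry into meiosis went the other way. Of 15, 6 fell and 0 rose against control set 2, 10 fell and 1 rose against control set 1, and 6 fell against both. The 6 falls against control set 2 became 2 without T4A replicate 1, and 3 without T4A replicate 3 or any 1 library of that control set. The mating MAP kinase gene spk1 stood at 13.4, 17.3 and 13.8 CPM in T4A, against 27.7, 26.7 and 31.4 CPM in control set 2 and 104, 104 and 119 CPM in control set 1. Every T4A library was lower than every control, though by different amounts (-0.98 ± 0.17 and -2.90 ± 0.14). The other 5 were mei2 (-0.77 and -3.37), map1 (-0.69 and -2.68), the kinase gene byr1 (-0.38 and -1.06), the G protein gene gpa1 (-0.32 and -0.89) and ste6 (-0.95 and -1.17). The master regulator gene ste11 stood at -0.11 against control set 2 and fell by 2.69 on the log2 scale against control set 1.

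Mating-type genes were measured as a check of strain, and the h+ label of the controls has no counterpart for T4A. Of the 4 genes listed for h+ cells, 2 fell against both sets, among them map2, which encodes the P-factor pheromone (-1.61 and -0.65), and of the 7 listed for h- cells 0 rose or fell against both. Of 6 auxotrophic marker genes tested, leu1 (-0.40 and -0.50) and arg3 (-1.08 and -0.71) fell against both sets. Their part in the other results was not tested.

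Thiamine genes fell by small amounts, 6 of 9 against control set 2, 4 against control set 1 and 4 against both, with 0 rises. Among the 4 were the transcription factor gene thi1 (-0.65 ± 0.09 and -0.45 ± 0.10), the transporter gene thi9 (-0.66 ± 0.17 and -0.68 ± 0.17) and thi4 (-0.57 ± 0.12 and -0.47 ± 0.13). The thiamine-repressed gene nmt1 stood at -0.29 and -0.26 and did not pass. Of the 6 falls against control set 2, 2 are positive in the authors' deposited table, thi1 (0.16) and thi4 (0.13). The other 4 are negative there (66.7%), against 75% of all genes that fell.

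Of 16 genes of ribosome biogenesis, 6 fell and 2 rose against control set 2, 11 fell and 0 rose against control set 1, and 5 fell against both. The fibrillarin gene fib1 fell (-0.55 ± 0.11 and -1.07 ± 0.12), as did rrp5 (-0.47 ± 0.09 and -0.89 ± 0.10), the helicase gene dbp2 (-0.70 ± 0.11 and -0.56 ± 0.10) and the GTPase-like gene tsr1 (-0.71 ± 0.13 and -0.83 ± 0.12). The 141 genes listed as cytosolic ribosomal proteins depended on the reference. This list also holds rpp1, rpp21 and rpp40, which encode RNase P subunits and not ribosomal proteins. Of the 141, 46 rose and 3 fell against control set 2, 12 rose and 15 fell against control set 1, and 9 rose and 1 fell against both, with medians of 0.23 and 0.09. Among these, rpp1 is 1 of the 3 falls against control set 2 (-0.58), and rpp40 is 1 of the 12 rises against control set 1 (0.46). The counts are 32.6% and 2.13% of the listed genes against control set 2, where 18.4% and 22.4% of all genes rose and fell. Against control set 1 they are 8.51% and 10.6%, and against both 6.38% and 0.709%, all below the shares of all genes given above. The 46 rises became 16 without T4A replicate 1, and 23, 22 and 19 without control set 2 replicate 4, 5 and 6.

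Genes of the transcription machinery are given by their counts against both sets, where 9.79% of all genes rose and 10.8% fell. The shares were 8.33% and 16.7% for polymerase II subunits, and 7.69% and 0% for CTD kinases, phosphatases and the isomerase. For factors of termination and 3' processing they were 0% and 5%. Of 12 polymerase II subunit genes, rpb4, whose product forms a stalk with Rpb7, rose (1.26 ± 0.22 and 0.69 ± 0.18), and rpb1 and rpb5 (-0.30 and -0.40) fell. Of 13 CTD kinases, phosphatases and the isomerase, 1 rose against both, the gene lsc1 of the cyclin partner of the kinase Lsk1 (0.60 and 0.43). The cap methyltransferase gene pcm1 (SPCC330.10) stood at 5.03, 3.32 and 4 CPM in T4A, against 14.4, 15.6 and 14.1 CPM in control set 2 and 13.4, 13.8 and 16.1 CPM in control set 1. The T4A libraries were all lower, by -1.85 ± 0.21 (adjusted p = 1.2e-04, edgeR) and -1.83 ± 0.21 (adjusted p = 1.0e-04, edgeR), and also lower than the 3 ALT alleles (-1.51, -1.75 and -1.77). Of 20 factors of termination and 3' processing, 1 fell against both sets, the cleavage factor gene cft2 (-0.94 ± 0.18 and -1.16 ± 0.17). Outside these lists and chosen after their values were seen, the TFIIB gene sua7 rose (1.43 ± 0.13 and 1.58 ± 0.13) and the Paf1 complex gene tpr1 fell (-1.42 ± 0.15 and -1.75 ± 0.16).

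The largest fall of a coding gene was that of gdt1 (SPAC186.05c), a Golgi antiporter of calcium and manganese. It stood at 0.503, 0.906 and 0.818 CPM in T4A, against 190.2, 168 and 191 CPM in control set 2 and 68, 74.4 and 62 CPM in control set 1. The gene was nearly silent in all T4A libraries, with log2 fold changes of -7.97 ± 0.17 (adjusted p = 2.3e-09, edgeR) and -6.54 ± 0.22 (adjusted p = 4.5e-08, edgeR). The ALT alleles lay above T4A and below control set 2, at 101 ± 10 CPM in ALT-P3A, which is above control set 1, 6.47 ± 6.53 CPM in ALT-S5A and 14.8 ± 10.8 CPM in ALT-P6A (SD).

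Coding genes near it on chromosome I moved with it. Runs were read along the reference gene order of coding genes tested in both fits. Genes not tested and non-coding genes were skipped, so members of a run need not be adjacent. From SPAC186.04c through gdt1, SPAC186.06 and SPAC750.01 to ftm4, 5 coding genes in a row by this order were called lower against both sets. SPAC186.06 fell (-5.33 ± 0.33 and -4.86 ± 0.36), and SPAC750.01, an aldo/keto reductase gene, fell by different amounts (-2.78 ± 0.33 and -5.97 ± 0.33). SPAC186.04c was at 0, 0 and 0.0861 CPM in T4A, against 0.66, 1.2 and 1.49 CPM in control set 2, and the subtelomeric gene ftm4 at 0, 0 and 0.043 CPM, against 5.79, 5.25 and 0.625 CPM. Only 4.66% of the 31-base stretches of ftm4 and 62.4% of those of SPAC750.01 occur once in the reference genome, so their counts may include reads of near copies.

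There were 3 other such runs of at least 3 coding genes. On chromosome II the urea transporter gene SPBPB8B6.02c (-3.13 ± 0.42 and -3.13 ± 0.40), the transcription factor gene grt1 (-4.81 ± 0.40 and -4.86 ± 0.42) and the amidase gene fah1 (-2.18 ± 0.63 and -3.83 ± 0.58) were lower. Without control set 2 replicate 6 fah1 stood at -2.08 (adjusted p = 0.063, edgeR). On chromosome I, mug115 (-1.31 ± 0.15 and -1.75 ± 0.13), SPAC56F8.13 and SPAC56F8.15 were lower. The 1 run of rises, also on chromosome I, was the methyltransferase gene mtl16 (1.11 ± 0.26 and 1.01 ± 0.22), SPAC27D7.09c and its But2 family relative SPAC27D7.11c (2.55 ± 0.14 and 2.00 ± 0.15). With the adjusted p alone, the flocculin gene pfl7 (-5.81 ± 0.41 and -2.98 ± 0.42) lay in a run of 5 falls on chromosome II with SPBC359.01, alr2, aat1 and abc3. Of the 57 called falls whose upstream neighbour on the same strand was tested, that neighbour fell against both sets for 18 (31.6%), against 10.7% for all coding genes. These falls include members of the runs, which were chosen for such neighbours, and outside the runs the count was 13 of 50 (26%). Of 54 called rises with a tested upstream neighbour, it rose for 8 (14.8%) and fell for 9 (16.7%), against 9.4% and 10.7% for all coding genes.

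Other named falls included a gene of mitochondrial translation and several of metabolic enzymes. The mitochondrial translation factor gene guf1 (SPAC1B3.04c) stood at 0.755, 0.362 and 0.516 CPM in T4A, against 9.19, 12.5 and 11.2 CPM in control set 2 and 9.24, 9.61 and 12.7 CPM in control set 1. All T4A libraries were below 1 CPM and no control was below 9 CPM (-4.33 ± 0.29 and -4.26 ± 0.29). The cystathionine beta-lyase gene cbl1 (SPCC11E10.01), of methionine synthesis, stood at 34.8, 39.4 and 30.2 CPM in T4A, against 245, 222 and 252 CPM in control set 2 and 192, 177 and 167 CPM in control set 1. It was lower in each T4A library than in any control (-2.81 ± 0.11 and -2.38 ± 0.12). Also lower were the folate enzyme gene fau1 (-3.22 ± 0.24 and -2.62 ± 0.24), ngl1, annotated as a peptide N-glycanase (-2.84 ± 0.27 and -2.71 ± 0.29), aes1, of the PhzF family (-3.56 ± 0.16 and -2.19 ± 0.16), and abp2, which may bind replication origins (-2.97 ± 0.17 and -1.75 ± 0.20).

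The largest coding changes against control set 2 that control set 1 did not share show how far the reference matters. The methyltransferase gene cmt2 stood at 9.51, 16.6 and 8.13 CPM in T4A, against 1.22, 0.911 and 1.34 CPM in control set 2 and 29.7, 56.7 and 238 CPM in control set 1. T4A lay between the control sets, so the gene was called higher against the first (3.27 ± 0.31) and lower against the other (-3.28 ± 0.65), and SPCC737.04 did the same (3.17 ± 0.38 and -3.03 ± 0.43). The kinetochore gene spc24 stood at 9.41, 5.86 and 10.4 CPM in T4A, against 72.4, 79.9 and 62 CPM in control set 2 and 8.13, 7.53 and 11.8 CPM in control set 1. It fell by 3.08 on the log2 scale against control set 2, but T4A and control set 1 overlapped (-0.11, adjusted p = 0.75, edgeR).

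The remaining genes of this kind gave a call against control set 2 alone. Higher there were rec10 (2.50 ± 0.42), mug147 (2.60 ± 0.22; 0.22 against control set 1) and the aldehyde reductase gene SPAC19G12.09 (2.34 ± 0.14; 0.70). Lower were the arylsulfatase gene SPBPB10D8.02c (-4.46 ± 0.45; -1.13 against control set 1), the predicted transcription factor gene SPAC2H10.01 (-3.25 ± 0.21; -0.56), the nucleotidase gene SPBPB2B2.06c (-3.16 ± 0.42; 0.69) and zrt1.

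Long non-coding RNAs gave more calls per gene than coding genes. Of 992 tested against control set 2, 94 were called higher and 255 lower (9.48% and 25.7%). Against control set 1, 110 were called higher and 141 lower of 952 (11.6% and 14.8%), and 62 and 80 of 931 were called against both sets (6.66% and 8.59%). For coding genes the shares called against both were 1.4% and 1.52%. Antisense RNAs, by name, differed between the references. Of 582 tested against control set 2, 60 were called higher and 152 lower, of 544 against control set 1, 85 and 53, and of 540 in both fits, 44 and 33. The other long non-coding RNAs gave more lower than higher calls against each set, 34 and 103 of 410 against control set 2 and 25 and 88 of 408 against control set 1. The kit was stranded, but the counting strand is not given in the sources used here. How far reads of an antisense RNA and of the gene opposite were kept apart in counting is therefore not known.

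The antisense RNA of SPCC1919.05 (SPNCRNA.1273) stood at 92.9, 124 and 78.7 CPM in T4A, against 4.11, 3.9 and 3.99 CPM in control set 2 and 7.63, 8.15 and 5.29 CPM in control set 1. That of orc1, a gene of the origin recognition complex (SPNCRNA.1529), stood at 63.5, 42.6 and 54 CPM in T4A, against 2.13, 3.31 and 2.83 CPM in control set 2 and 5.73, 4.45 and 3.84 CPM in control set 1. Both were higher in every T4A library than in any control (4.59 ± 0.18 and 3.79 ± 0.21 for SPCC1919.05-antisense-1; 4.24 ± 0.24 and 3.49 ± 0.21 for orc1-antisense-1). The mRNA of orc1 stood at 0.26 (adjusted p = 0.21, edgeR) and -0.02 (adjusted p = 0.92, edgeR). The other named rises were nam3 (SPNCRNA.1696; 3.20 ± 0.26 and 3.05 ± 0.27) and the U3 small nucleolar RNA snu3 (3.42 ± 0.39 and 2.95 ± 0.23). Of 34 genes opposite an antisense RNA called higher against both sets, 3 rose and 3 fell (8.82% each), against 7.69% and 13.2% of 468 genes opposite any named antisense RNA.

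The named non-coding falls were end4-antisense-1 (SPNCRNA.888; -4.27 ± 0.27 and -2.49 ± 0.30), num1-antisense-1 (SPNCRNA.1397; -1.65 ± 0.17 and -1.55 ± 0.17), SPNCRNA.703 (-2.24 ± 0.19 and -2.06 ± 0.19) and SPNCRNA.655 (-1.84 ± 0.23 and -1.65 ± 0.21). As a measure of antisense counts in each library, the antisense count was divided by the sense count at 60 highly expressed genes. The median was 0.198%, 0.157% and 0.193% in T4A, against 1.56%, 1.95% and 1.34% in control set 2 and 0.162%, 0.222% and 0.278% in control set 1. By this ratio T4A overlapped control set 1 and lay below control set 2, and the ALT libraries, at 0.906% to 3.06%, lay with control set 2. The summed antisense CPM of these genes grouped the libraries otherwise. T4A, at 3354, 3726 and 3395, lay above control set 1 (2896 to 3211) and below control set 2 (3940 to 4016). ALT-P6A, at 3154 to 3767, overlapped T4A, while ALT-P3A (4051 to 4177) and ALT-S5A (3830 to 4512) lay above it. Whether these measures bear on the antisense calls was not tested.

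**Figure D5:**
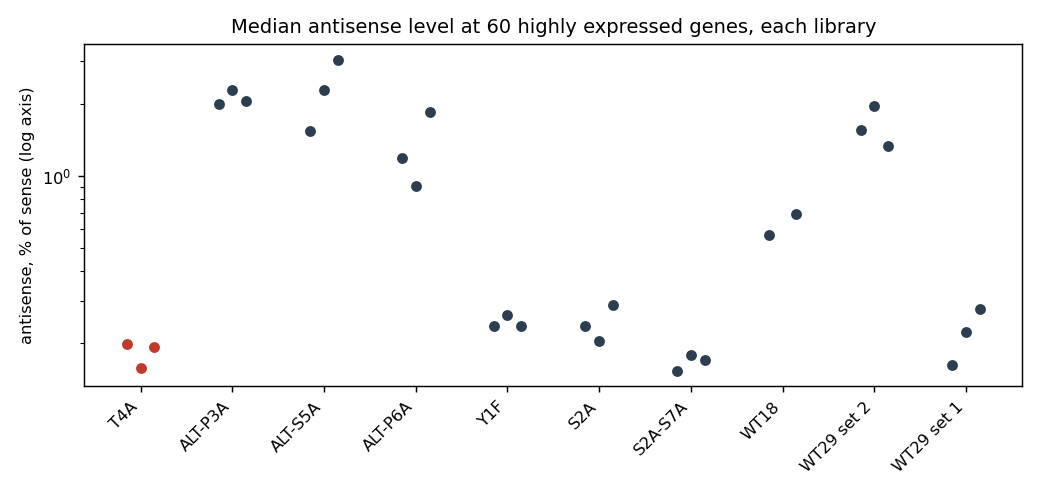
Antisense count as a percentage of the sense count, median over 60 highly expressed genes with an annotated antisense RNA, in each library by strain (log axis). T4A lies at 0.157% to 0.198%, near control set 1 at 0.162% to 0.278%, and control set 2 at 1.34% to 1.95%.

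Small nucleolar RNAs made up 0.0228%, 0.0197% and 0.0267% of counts in the T4A libraries, against 0.0149% to 0.0167% in control set 2 and 0.0143% to 0.0151% in control set 1. Every T4A library was above every control. Of 36 tested in both fits, 7 were called higher and 2 lower against both (19.4% and 5.56%), against 2.48% and 2.7% of all genes. Ribosomal RNA features, of which little remains in polyadenylated RNA, were called higher for 6 of 17 and lower for 0 (35.3% and 0%). They made up 0.00302% to 0.00396% of counts in T4A, against 0.00167% to 0.00241% in control set 2 and 0.00186% to 0.00257% in control set 1. The ALT libraries held 0.00225% to 0.00514%, with ALT-P6A at 0.00393% to 0.00514%. In T4A, 4 of 20 features were called higher than in ALT-P3A, 2 of 20 than in ALT-S5A and 1 of 23 than in ALT-P6A. Called lower were 0, 0 and 3. How much carried-over unadenylated RNA each library holds was not tested.

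Set directly against the ALT alleles, T4A had 123 genes called higher and 397 lower than ALT-P3A of 6107 tested (2.01% and 6.5%). The counts were 130 and 404 of 6104 against ALT-S5A (2.13% and 6.62%) and 179 and 288 of 6104 against ALT-P6A (2.93% and 4.72%). These comparisons share the T4A libraries with each other and with those above. Across all 5 references, 37 genes were called higher and 68 lower of 5933 (0.624% and 1.15%). The 13 coding rises include hsp16, atd1, plr1, srx1, zym1, str1, fio1, mug108 and the But2 family genes, and the 31 coding falls include pho1, pho84, gdt1, guf1, cbl1, fau1, ngl1, aes1, abp2, pcm1, tpr1, grt1 and the biotin transporter gene vht1.

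The size of the stress and chaperone differences from the ALT alleles was smaller than from WT29. T4A was above ALT-P3A, ALT-S5A and ALT-P6A for hsp16 by 1.95 ± 0.13, 1.68 ± 0.19 and 2.08 ± 0.13, for ssa1 by 2.01 ± 0.15, 0.88 ± 0.18 and 1.30 ± 0.16, and for caf5 by 1.78 ± 0.27, 0.95 ± 0.28 and 0.82 ± 0.28. For the flavodoxin-like gene obr1, T4A rose over ALT-P3A (0.70, adjusted p = 0.027, edgeR) but not over ALT-S5A (-0.34 ± 0.22) or ALT-P6A (-0.08 ± 0.23; adjusted p = 0.25 and 0.82, edgeR), though it was higher than both control sets (1.28 ± 0.25 and 1.23 ± 0.27). Of the 15 chaperone genes, 10, 7 and 9 rose and 0 fell over the 3 alleles in that order. The siderophore-iron transporter gene str3 was higher in T4A than in both control sets (3.86 ± 0.48 and 1.31 ± 0.36) but lower than in ALT-P6A (-2.44 ± 0.34), at 0.969 ± 0.274 CPM in T4A and 5.16 ± 2.35 CPM in ALT-P6A (SD).

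In the authors' deposited table for T4A, 235 genes pass the same threshold as higher and 651 as lower of 6689 with an adjusted p. It includes 107 of the 147 rises and 131 of the 160 falls called here against both sets, and 1 gene with the opposite call. The table gives pho1 at -3.11, pho84 at -3.17, tgp1 at -0.02, hsp16 at 3.28, str1 at 3.94 and gdt1 at -6.65. Its T4A means were rebuilt from the count columns to a median of 0.0106%. Its control means were not: they differed by a median of 25.2% from those of control set 2 and 14.3% from those of control set 1, so the control libraries behind the table are not known from the counts.

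Across the 3 T4A libraries, replicate 2 was the highest for 36 of the 69 coding rises called against both sets and the lowest for 27. Replicate 1 was the highest for 21 and the lowest for 7, and replicate 3 the highest for 12 and the lowest for 35. For caf5 replicate 2 stood at 568 CPM, against 284 and 193 CPM in the other T4A libraries, and for rpb1 at 88.1 CPM, against 48.5 and 49.3 CPM. Without it, 451 genes were called higher against control set 2 in place of 317, and without control set 2 replicate 5, 489 were.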

How the data were processed

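Polyadenylated RNA was sequenced with a stranded TruSeq kit. The authors aligned reads with HISAT2 2.1.0 to assembly ASM294v2, processed them with SAMtools and counted them by HTSeq 0.10.0 (all per the submitters' processing notes), and deposited whole read counts per gene. The authors' deposited table for T4A gives log2 fold changes over the control, adjusted p-values by DESeq2 and group means as a signal (counts over size factors), per the file headers and processing notes. The 6987 lines of the count table hold 6986 gene IDs, 1 of them repeated on an empty line, and 269 IDs have no count. Gene names, classes and order are those of ASM294v3, in which 6846 IDs were found. As the builds differ, coordinates and sequences are not printed. Of 31 library columns, 2 were not used.

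Each control comparison was fitted on its own 6 libraries, and each ALT comparison on the libraries of both alleles and control set 2, with edgeR 4.0.16 under R 4.3.3 (quasi-likelihood F test, TMM scaling, filterByExpr). Benjamini-Hochberg adjustment ran over all genes tested. The fit was tested on simulated data. CPM come from counts of 29 libraries scaled together by TMM. Alternatives were DESeq2 1.42.0 (size factors, Wald test), other filters, other control libraries, each library left out, and replicate blocks.

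Named genes are coding genes averaging 2 or more in log2 CPM, with no overlap of T4A and control set 2 libraries, and a call in 1 direction against both control sets. The rule took the 12 rises and 12 falls ranked by the smaller of the changes, 4 non-coding RNAs each way, 5 coding genes each way not called against control set 1, and list members, including the 4 with the smallest p in lists of over 8. Further members named were chosen after their values were seen. The comparison, the 35 gene lists and their members were chosen with earlier results of these data known, so a list's direction is not independent evidence. The share of 31-base stretches that occur once came from the ASM294v3 genome.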

Additional observations from a re-analysis of the deposited data

How the results depend on the processing

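The calls of T4A against control set 2 were 317 higher and 475 lower. Leaving out 1 library at a time gave 270 to 489 and 449 to 497. With no minimum fold they were 1105 and 1351, for coding genes alone, chosen after seeing the data, 200 and 209, and with both control sets as 1 group of 6 libraries 222 and 252. Against control set 1 (256 and 345), they were 1055 and 1231 with no minimum fold and 123 and 198 for coding genes. Against ALT-P3A no minimum fold gave 969 and 1079, against ALT-S5A 830 and 1049, and against ALT-P6A 1001 and 946. For both control sets (147 and 160) it gave 581 and 638, and coding genes 69 and 75. The cause of these moves, beyond the dropped fold or the fewer genes counted, was not tested. DESeq2 size factors, its Wald test and no filter on low counts kept the counts within 1.5 times in every comparison.

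No paired analysis was possible against control set 2 because its numbers, 4 to 6, are not those of T4A. With the replicate number as a block, 264 and 367 genes were called against control set 1, 122 and 404 against ALT-P3A, 134 and 369 against ALT-S5A, and 162 and 274 against ALT-P6A, each within 1.5 times of the count without it. No label says that equal numbers pair T4A libraries with others. Correlations of same-numbered deviations were -0.09, 0.14 and 0.37 for control set 1, 0.03, 0.13 and 0.14 for ALT-P3A, and negative for ALT-S5A and ALT-P6A.

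Single genes of the text also turned. With control set 1 in place, the log2 fold change was -3.28 for cmt2, -3.03 for SPCC737.04, 0.69 for SPBPB2B2.06c, 0.05 for ctr4, 0.10 for ctr5, 0.02 for fep1, -0.02 for orc1, -0.44 for rpt5, -0.62 for rpt6, -0.16 for sib1, -0.17 for sib2 and 0.37 for str2. With both sets as 1 group it was -2.23 for cmt2, -1.98 for SPCC737.04, -0.16 for rpt5 and -0.27 for rpt6. With 1 library left out, values near 0 ranged from -0.04 to 0.32 for ctt1, -0.03 to 0.37 for prt2, -0.02 to 0.17 for rpt6 and -0.18 to 0 for ste11. Leaving out 1 library took the adjusted p against control set 2 (edgeR) as high as 0.19 for mmi1, 0.17 for rpb5, 0.15 for mei2 and map1, 0.13 for gpa1, 0.12 for byr1, 0.09 for asp1, 0.083 for leu1, 0.081 for sib1 and 0.063 for lsc1 and fah1. The cause was not tested.

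With 19.3 to 24.9 M counts per library, levels under 1 CPM rest on few reads, and 3 libraries per group limit every estimate of the spread.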

Other observations

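Genes whose product name holds the word mitochondrial or mitochondrion, a group chosen after values were seen, numbered 366. Of these 32 rose and 55 fell in T4A against both control sets (8.74% and 15%), against 9.37% and 9.86% of the other 4555 coding genes, and no test of the group was made. Among genes of the respiratory chain, cyt1, the cytochrome c1 gene, stood at 261, 256 and 251 CPM in T4A, against 661, 586 and 599.9 CPM in control set 2 and 703, 680.4 and 608 CPM in control set 1. The T4A libraries were close together and below every control (log2 fold changes of -1.29 ± 0.10 and -1.40 ± 0.11). The gene qcr8, of the same complex, fell by 1.06 and 1.23 on the log2 scale. These 2 genes were also chosen after their values were seen. In contrast, isu1, which builds iron-sulfur clusters in mitochondria, rose by 1.60 ± 0.13 and 1.06 ± 0.16, and mmt1 by 1.11 ± 0.19 and 1.04 ± 0.18.

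The peroxiredoxin gene pmp20 stood at 1504, 1682 and 1149 CPM in T4A, against 307, 278 and 309 CPM in control set 2 and 345, 319 and 291 CPM in control set 1. It rose by 2.25 ± 0.14 and 2.16 ± 0.16 and is on none of the lists. The squalene monooxygenase gene erg1, of sterol synthesis, fell against both control sets (-1.07 ± 0.19 and -1.49 ± 0.22), while against ALT-P3A it stood at 0.23 (adjusted p = 0.34, edgeR). The ribosomal protein gene rpl1603 fell against both control sets (-1.04 ± 0.12 and -1.17 ± 0.12), the 1 fall against both among the 141 genes of that list.

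The other gene groups are given by their counts against both control sets together. Of 11 histone genes 0 rose and 0 fell, and of 3 tested genes of the Tf2 retrotransposons and 14 of the wtf spore killers 0 did. Sterol synthesis had 3 rises and 1 fall of 17, hexose transport and glucose repression 2 and 0 of 14, nitrogen starvation and uptake 2 and 2 of 13, and cell separation 1 and 0 of 9. Flocculation had 0 rises and 2 falls of 12, G1/S transcripts 0 and 2 of 12, and translation factors 0 and 2 of 13. Sporulation had 1 and 1 of 11, and the uracil-regulated genes 0 and 0 of 3. Those 3 genes, urg1, urg2 and urg3, are at -3.88, -3.24 and -1.27 in the authors' deposited table. Over ALT-S5A 3 of them fell, 2 of these called lower, with a median of -2.17. Over ALT-P6A 2 fell and were called lower, with a median of -1.85, and over ALT-P3A 0 rose or fell. Over all genes tested, 9.79% rose and 10.8% fell against both sets. Rises lay above this share for sterol synthesis (17.6%), nitrogen (15.4%), hexose transport and glucose repression (14.3%) and cell separation (11.1%). Falls lay above it for flocculation and G1/S transcripts (16.7% each) and for nitrogen and translation factors (15.4% each). These lists had 9 to 17 tested genes.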
